A study of Mus musculus with 8 samples.

Results

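The genes described here encode the ligands, receptors and SMAD proteins of transforming growth factor beta (TGF-beta) and bone morphogenetic protein (BMP) signalling in mouse epididymal white adipose tissue. They were taken by gene symbol alone, as every Tgfb, Tgfbr, Bmp, Bmpr, Gdf, Inhb, Acvr and Smad gene in the files apart from Bmp3, with no use of their values. This gave 48 of the 18691 genes in the files, namely 26 ligands, 7 type I receptors, 4 type II receptors, 1 co-receptor, 8 SMADs and 2 genes that share only the Bmp name, the protease Bmp1 and the kinase Bmp2k. The study compared C57BL/6J mice at 16 weeks of age, 4 libraries from wild type (WT) animals against 4 labelled Mrp4 knockout (Mrp4-/-), by sequencing polyadenylated RNA from the epididymal fat. The latter are called KO 1, KO 2, KO 4 and KO 5 below after their label, and the former WT 1 to WT 4. The labels do not tie each library to its own mouse, and the p-values therefore cover the spread between libraries alone, which may be technical. The knockout is labelled as an Mrp4 genotype of the mouse, with the removed part of the gene not given in the sources used here.

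Ligands of this family bind as dimers to a pair of type II and type I receptor kinases, and the type I kinase phosphorylates receptor-regulated SMADs, which join SMAD4 and enter the nucleus. SMAD2 and SMAD3 carry the signal of TGF-beta and activin, SMAD1, SMAD5 and SMAD9 that of BMPs. SMAD6 mainly restrains the BMP branch, and SMAD7 restrains both. In fat tissue, TGF-beta and activin are known for holding back adipocyte differentiation and for promoting fibrosis, and several BMPs for committing progenitors to the adipocyte lineage.

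The libraries held 14.1e6 to 14.7e6 expected counts each and listed 16673 to 17183 genes. Abcc4 (gene 239273), which encodes the membrane exporter Mrp4, was not lower in the libraries labelled knockout. It measured 3.59, 3.33, 3.81 and 3.33 FPKM (fragments over transcript length and over the depth of the library) in WT 1 to 4 and 3.54, 3.68, 3.89 and 3.31 FPKM in KO 1, 2, 4 and 5. Its log2 fold change was -0.05 ± 0.08 SE (edgeR adjusted p = 0.692; exact two-sided permutation p = 0.571, where 0.0286 is the smallest possible). Transcript level thus did not check the genotype labels, and every direction below is between libraries as labelled. Adipocyte markers summed to 29145 to 33138 FPKM in WT and 23408 to 28033 FPKM in the KO-labelled libraries, lower in the latter with no overlap. Both groups thus held fat tissue, and these markers do not tell which depot. All 23 genes of a liver marker list differed: 22 rose and 1, Cyp2e1, fell. The other 22 summed to 63.4 to 161 FPKM in WT and to 962 to 1804 FPKM in the KO-labelled libraries, and none was at 0 in all WT libraries. With Cyp2e1 included the sums overlapped, at 1695 to 4181 FPKM in WT and 1947 to 3258 FPKM in the KO-labelled libraries. Cyp2e1 alone measured 1631 to 4109 FPKM in WT and 985 to 1517 FPKM in the KO-labelled libraries. In bulk tissue, fewer cells of a type and less RNA per cell cannot be told apart.

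Of the 48 genes, 38 passed the filter on low counts and were tested. Of these, 5 rose (Inhbb, Gdf15, Gdf6, Smad1 and Bmp1), 2 fell (Tgfbr3 and Smad9) and 31 did not pass. The called share was 18.4%, against 18.3% of the 14257 genes tested in all, of which 10.2% rose and 8.05% fell. The members' share was thus near that of all genes; with no filter it was 18.8% beside 13.0%, and with DESeq2 18.4% beside 23.2%. The median log2 fold change of its 38 tested genes was 0.04, beside -0.003 over all tested genes. The FPKM ranges of the groups did not overlap for 9 of the 38 tested members, 6 higher and 3 lower in the KO-labelled libraries, where 23.5% of all tested genes had ranges apart (16.4% higher and 7.08% lower). Here a gene is said to rise or fall where edgeR's quasi-likelihood test gave a Benjamini-Hochberg adjusted p under 0.05 over all tested genes. A log2 fold change is of the KO-labelled libraries against WT, on TMM-scaled expected counts. The filter was reached in all KO-labelled but not all WT libraries by 4 members (Gdf5, Gdf6, Gdf11 and Gdf15) and in all WT but not all KO-labelled libraries by Gdf1, so that the low ligands among the tested ones were partly chosen by their own level.

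**Figure D1:**
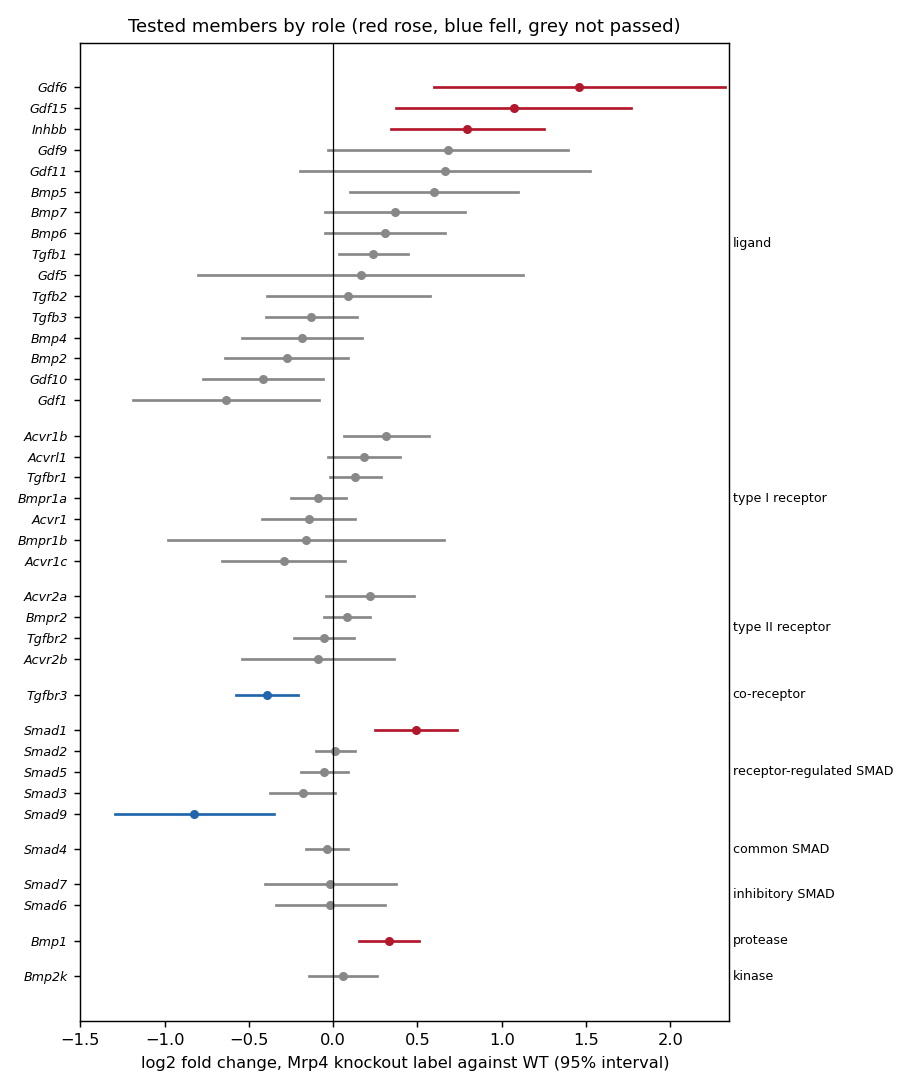
Log2 fold change (x axis, KO-labelled libraries against WT, edgeR) of the 38 tested members, in blocks by role, with 95% intervals as bars; red rose, blue fell, grey did not pass. The 3 red ligands lie between 0.80 and 1.46, no type I or type II receptor is coloured, and Smad1 and Smad9 lie on opposite sides of 0.

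The plot of fold changes by role shows where the calls fell. Among ligands, 3 of 16 tested (18.8%) rose and none fell, where 18.3% of all tested genes were called in either direction. Gdf6 and Gdf15, both among those that rose, reached the filter level in all KO-labelled but not all WT libraries. None of the 7 type I and 4 type II receptors passed, and the co-receptor Tgfbr3 fell. Among 8 SMADs, 1 rose and 1 fell, both of them receptor-regulated SMADs of the BMP branch. The ligand share was thus near the 18.3% of all tested genes. Each role holds few genes, and no role was tested against that share or against another role. The counts therefore do not show that calls were more or less frequent in any role.

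The sequence just upstream of the start is shown for the 4 called genes that have an entry among the RefSeq promoters, since these genes carry the differences described below. The windows are the 250 bases before the RefSeq start on GRCm38.p6, written along the gene's strand, while the authors' notes name mm9 for the counts. Capitals mark the short SMAD box, CAGAC, which reads GTCTG on the other strand, and the GC-rich BMP element, GGCGCC, which is its own reverse complement. The palindromic SMAD box GTCTAGAC, which contains neither, was searched too and is in none of these windows. Smad1 (chr8:79399429-79399678, minus strand), Smad9 (chr3:54755332-54755581, plus strand), Inhbb (chr1:119422249-119422498, minus strand) and the 2 starts of Gdf15 (chr8:70632457-70632706 and chr8:70632096-70632345, minus strand) read 5′ to 3′ as follows.
Smad1: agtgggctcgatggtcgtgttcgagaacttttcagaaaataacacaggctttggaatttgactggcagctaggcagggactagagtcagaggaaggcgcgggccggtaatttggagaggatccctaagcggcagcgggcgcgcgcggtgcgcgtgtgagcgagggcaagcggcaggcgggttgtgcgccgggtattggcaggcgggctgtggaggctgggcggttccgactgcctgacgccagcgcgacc
Smad9: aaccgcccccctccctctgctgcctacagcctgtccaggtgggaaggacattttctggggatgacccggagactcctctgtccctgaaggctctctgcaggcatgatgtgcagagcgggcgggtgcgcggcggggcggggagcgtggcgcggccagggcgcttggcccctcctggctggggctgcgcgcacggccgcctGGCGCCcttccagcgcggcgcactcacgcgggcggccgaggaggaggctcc
Inhbb: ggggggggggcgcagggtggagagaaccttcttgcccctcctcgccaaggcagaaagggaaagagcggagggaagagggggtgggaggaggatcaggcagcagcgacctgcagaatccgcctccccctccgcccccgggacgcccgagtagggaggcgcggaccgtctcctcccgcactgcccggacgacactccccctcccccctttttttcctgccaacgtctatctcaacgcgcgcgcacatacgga
Gdf15 start 1: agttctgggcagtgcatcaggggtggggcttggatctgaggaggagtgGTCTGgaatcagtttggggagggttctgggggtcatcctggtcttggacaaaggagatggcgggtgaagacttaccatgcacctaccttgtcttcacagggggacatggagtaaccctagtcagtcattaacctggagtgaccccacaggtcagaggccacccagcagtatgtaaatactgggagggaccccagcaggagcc
Gdf15 start 2: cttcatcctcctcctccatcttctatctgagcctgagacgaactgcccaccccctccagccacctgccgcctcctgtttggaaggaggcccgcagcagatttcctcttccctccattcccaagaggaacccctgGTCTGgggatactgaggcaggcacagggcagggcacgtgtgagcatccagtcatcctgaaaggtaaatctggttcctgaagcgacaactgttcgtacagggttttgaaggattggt

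The Smad1 and Inhbb windows hold none of these letters, the Smad9 window holds GGCGCC once, 51 bases before the start, and each Gdf15 window holds GTCTG once, 202 and 116 bases before its start. Over all 32851 RefSeq windows of 250 bases, 42.2% held the short SMAD box on either strand, 9.59% the GC-rich element and 0.167% the palindromic box. Of the 48 members, 35 had a window, and 16, 7 and 0 of them had a window with these motifs. A member was counted if any of its windows held the motif, while the shares over all windows are per window. The member counts and these shares are therefore not in like units. The Smad9, Inhbb and Smad1 windows were rich in G and C, at 73.2%, 68.0% and 63.6%, beside a mean of 53.2% over all windows. A match describes letters only, and no match says only that the letters are not in this window. No window is given for Tgfbr3, Bmp1 and Gdf6.

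Inhbb (gene 16324), which encodes the beta B chain of activins and inhibins and is known to be made by adipocytes, was the most abundant of the ligands that rose. It measured 9.31, 13.88, 13.35 and 6.82 FPKM in WT 1 to 4 and 23.40, 19.92, 16.25 and 19.01 FPKM in KO 1, 2, 4 and 5. All 4 KO-labelled libraries lay above all WT libraries, with WT 4 the lowest and KO 1 the highest. The mean went from 10.8 ± 3.37 to 19.6 ± 2.95 FPKM (SD, n = 4), a log2 fold change of 0.80 ± 0.20 SE (95% interval 0.34 to 1.25; edgeR adjusted p = 0.0284). Without WT 1, KO 1, KO 2 or KO 5 the call was lost, with log2 fold changes of 0.63 to 0.92 and edgeR adjusted p-values up to 0.0755 when any 1 library was left out.

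Gdf15 (gene 23886), a stress-induced hormone that acts on a receptor in the hindbrain, was low. It measured 0.67, 1.15, 1.53 and 0.95 FPKM in WT 1 to 4 and 2.40, 1.45, 3.10 and 2.47 FPKM in KO 1, 2, 4 and 5. The ranges overlap, because KO 2 lay below WT 3, and the other 3 KO-labelled libraries lay above every WT library. The mean went from 1.08 ± 0.362 to 2.36 ± 0.681 FPKM (log2 fold change 1.07 ± 0.31 SE, edgeR adjusted p = 0.0415). It rests on 205 counts in all 8 libraries, and the call was lost without WT 1, WT 2, WT 4, KO 1, KO 4 or KO 5 (log2 0.90 to 1.29, adjusted p up to 0.106). Gdf15 reached the filter level in all KO-labelled but not all WT libraries, so its entry into the test leaned on the group where it was higher.

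Gdf6 (gene 242316), a BMP of skeletal and eye development, was lower still. It measured 0.18, 0.24, 0.08 and 0.14 FPKM in WT 1 to 4 and 0.24, 0.59, 0.53 and 0.49 FPKM in KO 1, 2, 4 and 5. The groups touch at 0.24 FPKM, in WT 2 and KO 1, and the other KO-labelled libraries lay above all WT libraries. The log2 fold change was 1.46 ± 0.39 SE (95% interval 0.60 to 2.32, edgeR adjusted p = 0.0315) on 125 counts. Gdf6 reached the filter level in all KO-labelled but not all WT libraries, so its entry into the test leaned on the group where it was higher. The call was lost without WT 1, WT 3, WT 4, KO 2, KO 4 or KO 5 (log2 1.23 to 1.70, adjusted p up to 0.0801).

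**Figure D2:**
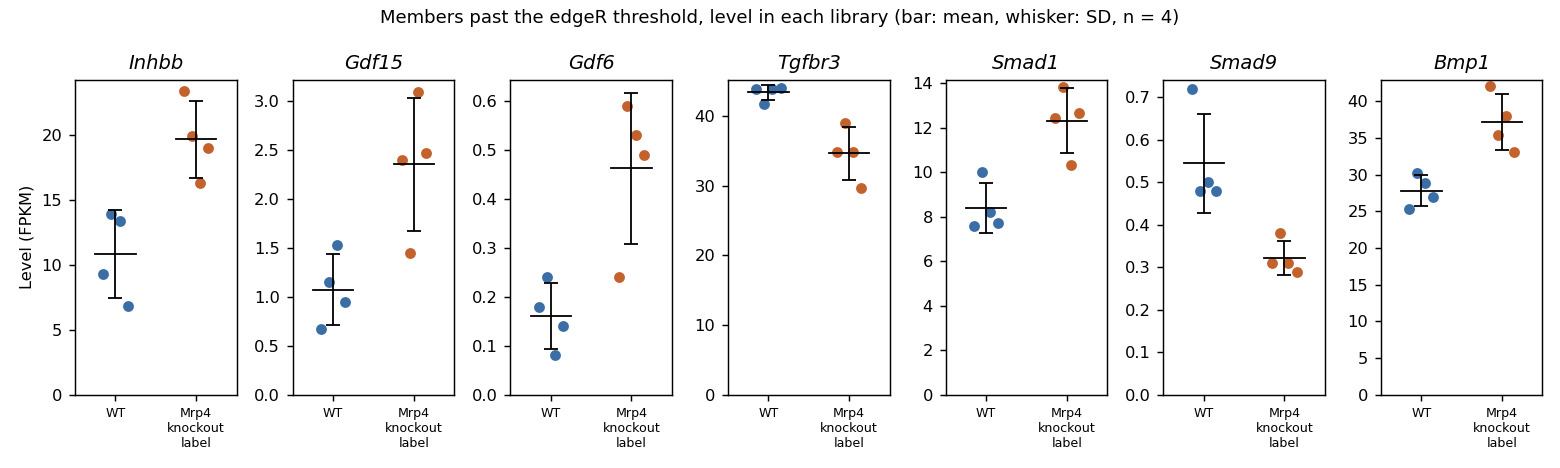
Level (y axis, FPKM, each panel starting at 0) of the 7 called members in each of the 4 WT and 4 KO-labelled libraries, with the group mean as a bar and the SD as a whisker (n = 4). The groups are apart for Inhbb, Tgfbr3, Smad1, Smad9 and Bmp1 and overlap or touch for Gdf15 and Gdf6.

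The remaining ligands include the most abundant ones, none of which passed. Per length, Tgfb1 was the highest of the 26 ligands, with 27.2% of their summed FPKM in WT and 29.8% in the KO-labelled libraries. Tgfb1, the main TGF-beta of immune and stromal cells, measured 35.81, 39.34, 37.61 and 30.79 FPKM in WT 1 to 4 and 47.97, 48.91, 41.79 and 38.33 FPKM in KO 1, 2, 4 and 5. KO 5 lay below WT 2, so the ranges overlap, and the log2 fold change was 0.24 (95% interval 0.04 to 0.44; edgeR adjusted p = 0.0923). Tgfb2 (1.92 ± 0.473 FPKM in WT and 2.14 ± 0.561 FPKM in KO-labelled libraries) and Tgfb3 (15.6 ± 1.95 and 14.9 ± 2.45 FPKM) had log2 fold changes of 0.09 and -0.13. The Tgfb1 to Tgfb3 ratio of FPKM was 2.18 to 2.58 in WT and 2.69 to 3.84 in the KO-labelled libraries, and these ranges do not overlap.

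Gdf10, also called BMP3B and known from adipose progenitors, was next in WT at 31.83, 39.28, 27.38 and 39.87 FPKM and measured 22.59, 34.66, 27.31 and 24.12 FPKM in KO 1, 2, 4 and 5. KO 2 lay within the WT range, and 3 of the KO-labelled libraries lay below every WT library. Its log2 fold change was -0.41 (95% interval -0.77 to -0.06; edgeR adjusted p = 0.0949), and without KO 2 it passed, at -0.55 and an adjusted p of 0.0454. Its share of summed ligand FPKM was 26.3% in WT and 18.2% in the KO-labelled libraries, while that of Inhbb was 8.11% and 13.3%. In the KO-labelled libraries the order of the highest ligands was Tgfb1, Gdf10, Inhbb, Bmp6 and Tgfb3, where each neighbouring pair after Tgfb1 overlaps in range. In WT it was Tgfb1, Gdf10, Tgfb3, Bmp6 and Inhbb, where each neighbouring pair overlaps except Gdf10 and Tgfb3.

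The BMPs proper did not pass. Bmp6, an endothelial BMP that governs iron balance through the liver, measured 14.4 ± 3.77 FPKM in WT and 18.6 ± 1.79 FPKM in the KO-labelled libraries (log2 fold change 0.31, edgeR adjusted p = 0.193). It passed without WT 2 (19.48 FPKM, the highest WT library), at 0.47 and an adjusted p of 0.0184. Bmp4, which commits precursors to the adipocyte lineage, measured 8.91 ± 0.959 and 8.19 ± 1.86 FPKM (log2 fold change -0.18). Bmp2 measured 4.41 ± 0.526 and 3.82 ± 0.964 FPKM (log2 fold change -0.27), and Bmp7, linked to brown fat, 1.22 ± 0.296 and 1.65 ± 0.189 FPKM (0.37). Bmp5 was under 1 FPKM at 0.58, 0.45, 0.36 and 0.54 FPKM in WT 1 to 4 and 0.69, 0.82, 0.80 and 0.74 FPKM in KO 1, 2, 4 and 5. Its ranges are apart, yet the log2 fold change of 0.60 did not pass (edgeR adjusted p = 0.0864), while limma on log2(FPKM + 1) and on log2(FPKM + 0.1) called it.

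Of the other ligands under 1 FPKM that were tested, Gdf5, Gdf9 and Gdf11 had log2 fold changes of 0.16, 0.68 and 0.66. None of these passed. Gdf1 lay lower in the KO-labelled libraries, with 0.45 to 0.51 FPKM in WT and 0.26 to 0.35 FPKM in the others, and did not pass (log2 fold change -0.64, edgeR adjusted p = 0.0971). Gdf1 is uncertain, since it shares a transcript with Cers1 and the length the files give for it differed 1.51-fold between libraries. The filter left 10 ligands untested: Inhba, Inhbc, Inhbe, Bmp8a, Bmp8b, Bmp10, Bmp15, Gdf2, Gdf3 and Gdf7. Among them Inhba, the beta A chain of activin A, was at 0.375 ± 0.114 FPKM in WT and 0.49 ± 0.264 FPKM in the KO-labelled libraries. Bmp8a, Bmp10, Bmp15, Gdf2, Gdf3 and Gdf7 stayed at or below 0.37 FPKM in every library, and Bmp8b had 1 count in all 8.

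**Figure D3:**
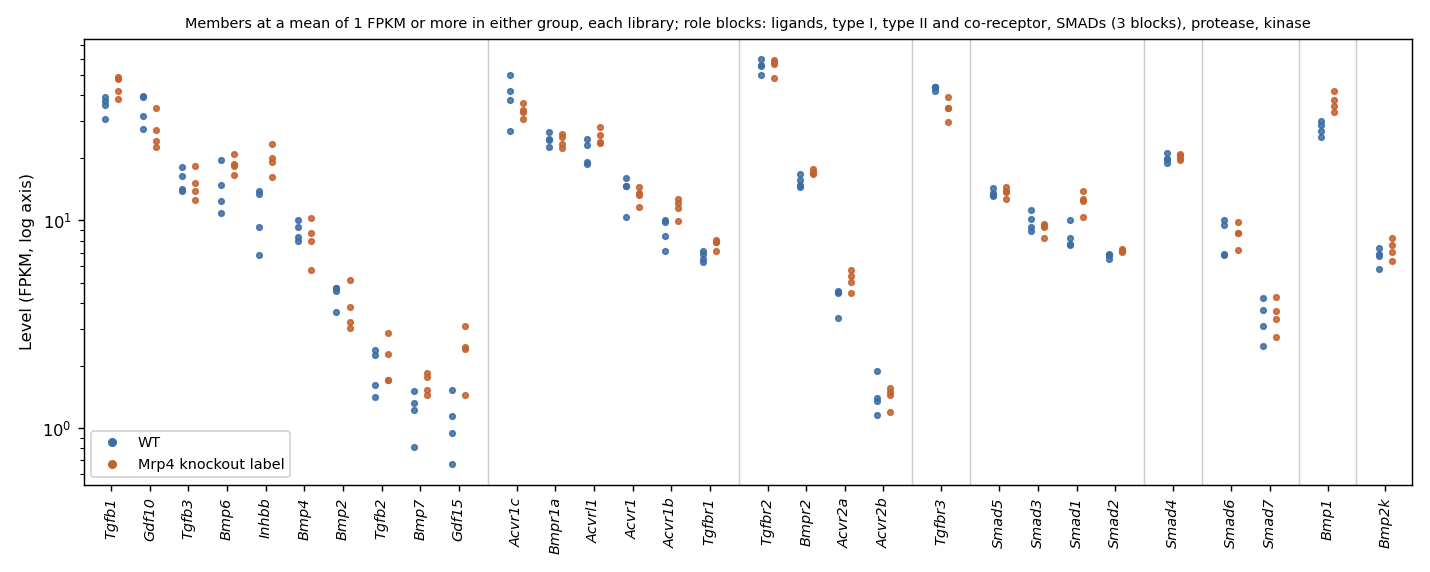
Level in each library (y axis, FPKM, log scale) of the 30 members whose mean reached 1 FPKM in either group, in blocks by role; blue points are WT and orange points KO-labelled libraries. Tgfb1, Tgfbr2, Tgfbr3 and Acvr1c are among the highest genes, and most pairs of columns overlap.

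Inhbc and Inhbe, the inhibin beta chains known to be made by the liver, were almost absent from the WT libraries. Inhbc (gene 16325) had 0 counts in all 4 WT libraries and 9, 40, 23 and 9 counts in KO 1, 2, 4 and 5, or 0.32, 1.41, 0.81 and 0.33 FPKM. With a floor of 3 counts over the WT group, its summed counts were at least 27.0-fold higher in the KO-labelled libraries. Inhbe (gene 16326) had 1 count in WT 3 and none in the other WT libraries, against 6, 9, 9 and 3 counts in KO 1, 2, 4 and 5, a ratio of 27.0 with a 95% counting interval of 4.45 to 1105 that covers counting error only. Both were removed by the filter, and edgeR with no filter beyond 1 count called both (adjusted p = 0.00844 for Inhbc and 0.0116 for Inhbe). The liver markers without Cyp2e1 summed to 962, 1770, 1804 and 1297 FPKM in KO 1, 2, 4 and 5. KO 2 and KO 4, the higher pair, also had the highest Inhbc and Inhbe, but the order within the pairs differed. KO 4 had a higher sum than KO 2 and fewer Inhbc counts. KO 5 had a higher sum than KO 1, fewer Inhbe counts and the same Inhbc count. In WT 1 to 4 the sums were 161, 63.4, 89.6 and 71.8 FPKM. The part of liver transcripts in the counts of Inhbc and Inhbe was not tested.

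**Figure D4:**
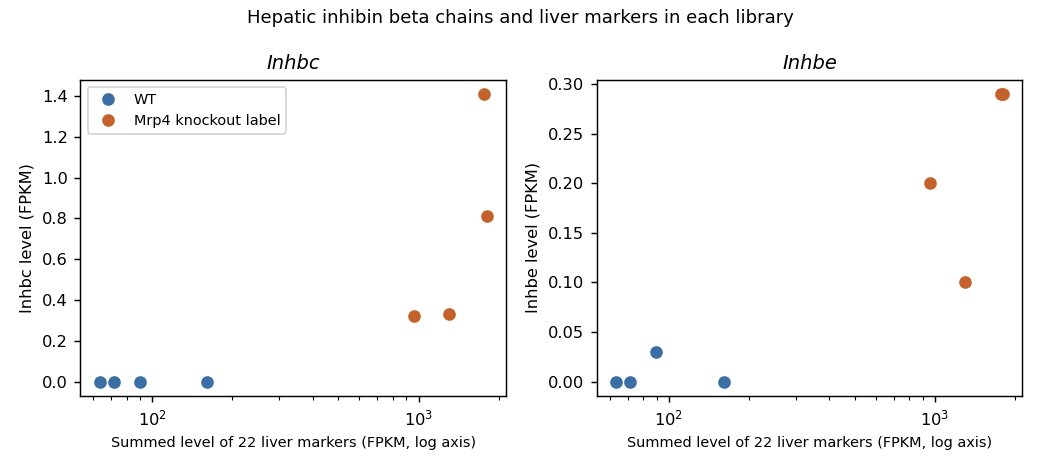
Level of Inhbc and Inhbe (y axes, FPKM) against the summed level of 22 liver markers, without Cyp2e1 (x axis, FPKM, log scale), in each library. Blue is WT and orange KO-labelled. The 4 WT libraries lie at or near 0 on the y axes and at 63.4 to 161 FPKM on the x axis, and the KO-labelled libraries are higher on both.

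Among type I receptors, the kinases that select the SMAD branch, no gene passed. Acvr1c, the activin receptor ALK7 that is known as an adipocyte receptor, was the highest per length, at 26.95, 42.12, 37.77 and 50.01 FPKM in WT 1 to 4 and 33.06, 36.75, 30.69 and 33.92 FPKM in KO 1, 2, 4 and 5. All KO-labelled libraries lay within the wide WT range, and the log2 fold change was -0.29 (edgeR adjusted p = 0.227). Without WT 1 it passed, at -0.44 and an adjusted p of 0.0444. Acvr1b, the activin receptor ALK4, measured 8.85 ± 1.36 FPKM in WT and 11.5 ± 1.17 FPKM in the KO-labelled libraries (log2 fold change 0.32, 95% interval 0.07 to 0.57, edgeR adjusted p = 0.0756).

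The other type I receptors differed less. Bmpr1a, the main BMP type I receptor, measured 24.5 ± 1.69 and 24.2 ± 1.75 FPKM, with a 95% interval of the log2 fold change from -0.25 to 0.08. Acvrl1, the endothelial receptor ALK1, measured 21.3 ± 2.90 and 25.3 ± 2.12 FPKM (log2 fold change 0.18), and Acvr1, or ALK2, 13.9 ± 2.41 and 13.2 ± 1.2 FPKM (-0.15). Tgfbr1, the TGF-beta type I receptor ALK5, had FPKM ranges that do not overlap, 6.31 to 7.13 in WT and 7.15 to 8.02 in the others. Its log2 fold change of 0.13 did not pass (95% interval -0.02 to 0.29; edgeR adjusted p = 0.197). Bmpr1b was under 1 FPKM in every library.

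Type II receptors, which bind ligand and activate the type I kinase, did not pass either. Tgfbr2, the TGF-beta type II receptor, made up 72.3% of their summed FPKM in WT and 70.1% in the KO-labelled libraries. Its level was 55.2 ± 4.04 and 55.6 ± 4.71 FPKM, and the 95% interval of its log2 fold change ran from -0.23 to 0.12. Bmpr2 measured 15.4 ± 1.0 and 17.1 ± 0.399 FPKM (95% interval -0.06 to 0.22), Acvr2a 4.25 ± 0.573 and 5.17 ± 0.556 FPKM (-0.04 to 0.48), and Acvr2b 1.45 ± 0.311 and 1.42 ± 0.156 FPKM (-0.54 to 0.36).

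Tgfbr3 (gene 21814), or betaglycan, presents TGF-beta2 to the signalling receptors and serves as a co-receptor for inhibin. It was the only receptor gene of the 12 to pass. It measured 43.84, 41.73, 43.91 and 43.99 FPKM in WT 1 to 4 and 34.86, 39.06, 34.83 and 29.70 FPKM in KO 1, 2, 4 and 5. All KO-labelled libraries lay below all WT libraries, which ran from 41.73 to 43.99 FPKM. The mean went from 43.4 ± 1.09 to 34.6 ± 3.83 FPKM, a log2 fold change of -0.39 ± 0.08 SE (95% interval -0.58 to -0.21; edgeR adjusted p = 0.0143). It was the only called member whose call was kept without any 1 of the 8 libraries (log2 -0.45 to -0.33). The Tgfbr2 to Tgfbr3 ratio of FPKM was 1.14 to 1.36 in WT and 1.45 to 1.69 in the KO-labelled libraries, and the ranges do not overlap. Some other ratios did overlap. Acvr1c to Acvr1b was 2.69 to 7.03 in WT and 2.69 to 3.42 in the KO-labelled libraries. Smad2 to Smad3 was 0.614 to 0.761 in WT and 0.754 to 0.867 in the KO-labelled libraries.

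Of the 3 receptor-regulated SMADs of the BMP branch, Smad1 rose, Smad9 fell and Smad5 did not pass. Smad1 (gene 17125) measured 7.57, 10.01, 8.23 and 7.72 FPKM in WT 1 to 4 and 12.46, 13.83, 10.34 and 12.67 FPKM in KO 1, 2, 4 and 5. The groups do not overlap, with WT 2 and KO 4 closest to each other. The mean went from 8.38 ± 1.12 to 12.3 ± 1.45 FPKM (log2 fold change 0.49 ± 0.11 SE, 95% interval 0.25 to 0.73, edgeR adjusted p = 0.0168). Only without WT 4 was the call lost, at an adjusted p of 0.0508, and the log2 fold change stayed between 0.44 and 0.57 over the 8 cases.

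Smad9 (gene 55994), whose protein is also called SMAD8, was far lower than Smad1 per length. It measured 0.72, 0.48, 0.50 and 0.48 FPKM in WT 1 to 4 and 0.31, 0.38, 0.31 and 0.29 FPKM in KO 1, 2, 4 and 5. All KO-labelled libraries lay below all WT libraries, and WT 1 lay above the rest. The log2 fold change was -0.82 ± 0.21 SE (95% interval -1.30 to -0.35; edgeR adjusted p = 0.0286) on 269 counts. The call was lost without WT 1, WT 3, WT 4, KO 1, KO 4 or KO 5 (log2 -0.91 to -0.66, adjusted p up to 0.0702), and in limma on log2(FPKM + 1) and log2(FPKM + 0.1).

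Smad5, the remaining BMP SMAD, measured 13.5 ± 0.544 FPKM in WT and 13.7 ± 0.730 FPKM in the KO-labelled libraries, with a 95% interval of -0.19 to 0.09 on the log2 scale. The Smad9 to Smad1 ratio of FPKM was 0.0480 to 0.0951 in WT and 0.0229 to 0.0300 in the KO-labelled libraries, with no overlap. The Smad1 to Smad5 ratio was 0.540 to 0.765 and 0.755 to 0.999, where WT 2 and KO 4 just overlap. Smad1 thus held 11.9% of the summed SMAD FPKM in WT and 16.4% in the KO-labelled libraries, and Smad9 0.77% and 0.43%.

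The SMADs of the TGF-beta and activin branch did not pass. Smad2 measured 6.92, 6.79, 6.85 and 6.51 FPKM in WT 1 to 4 and 7.11, 7.31, 7.04 and 7.14 FPKM in KO 1, 2, 4 and 5. The FPKM ranges do not overlap, but on TMM-scaled counts the log2 fold change was 0.01 (95% interval -0.10 to 0.13), so this separation depends on the scaling. Smad3 measured 9.91 ± 1.05 and 9.16 ± 0.622 FPKM (95% interval -0.38 to 0.01). Smad4, the common partner of both branches and the highest SMAD, measured 19.9 ± 0.930 and 20.2 ± 0.628 FPKM (-0.16 to 0.09). The inhibitory Smad6 (8.31 ± 1.71 and 8.59 ± 1.09 FPKM) and Smad7 (3.39 ± 0.761 and 3.51 ± 0.632 FPKM), both induced by the pathway they restrain, had log2 fold changes of -0.02 each, with 95% intervals of -0.34 to 0.31 and -0.40 to 0.37. For 16 of the 38 tested members, the whole 95% interval lay within 0.5 of 0 on the log2 scale.

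Bmp1 (gene 12153) is no BMP but a metalloprotease that trims procollagens and cleaves the BMP antagonist chordin. It measured 25.31, 30.21, 28.89 and 26.93 FPKM in WT 1 to 4 and 42.10, 35.44, 38.01 and 33.13 FPKM in KO 1, 2, 4 and 5. All KO-labelled libraries lay above all WT libraries. The mean went from 27.8 ± 2.16 to 37.2 ± 3.84 FPKM (log2 fold change 0.33 ± 0.08 SE, 95% interval 0.15 to 0.51, edgeR adjusted p = 0.0239). The call was lost without WT 1, WT 4, KO 1 or KO 4 (log2 0.27 to 0.38, adjusted p up to 0.0638). Bmp2k, a kinase named for its induction by BMP2, measured 6.71 ± 0.630 and 7.32 ± 0.814 FPKM (log2 fold change 0.06) and did not pass.

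Summed by role, the family's level per length differed little. Ligands summed to 132 ± 15 FPKM in WT and 148 ± 14.9 FPKM in the KO-labelled libraries, type I receptors to 115 ± 12.7 and 116 ± 7.5 FPKM, type II receptors to 76.3 ± 4.43 and 79.3 ± 5.51 FPKM, and SMADs to 70.7 ± 2.64 and 75.0 ± 4.29 FPKM. The ranges of the groups overlap in each of these sums.

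The genes around the pathway were taken from lists of known parts. Of 20 tested extracellular antagonists and modulators, 3 rose, 1 fell and 16 did not pass, with a median log2 fold change of -0.05. Decorin (Dcn), a matrix proteoglycan that binds TGF-beta, fell from 1019 ± 90.8 to 696 ± 87.8 FPKM (log2 fold change -0.61, edgeR adjusted p = 0.0116). Fstl1, a secreted modulator of BMP signalling, rose from 66.7 ± 11.7 to 124 ± 8.88 FPKM (0.83, adjusted p = 0.00211), and Kcp, a chordin-like BMP modulator, from 1.56 ± 0.423 to 3.41 ± 0.643 FPKM (1.07, adjusted p = 0.00828). Biglycan (Bgn), a proteoglycan related to decorin, rose from 214 ± 40.7 to 334 ± 38.7 FPKM (0.58, adjusted p = 0.0217), a call lost in 4 of 8 cases with 1 library left out. Dcn, Fstl1 and Kcp kept their edgeR calls without any 1 library. Without WT 2 the list had 9 called genes in place of 4, and DESeq2 called 7.

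Of 16 tested genes of TGF-beta latency and activation, 2 rose, none fell and 14 did not pass (median 0.14). Fbn1, the microfibril protein that anchors latent TGF-beta, rose from 36.2 ± 10.1 to 70.3 ± 9.36 FPKM (log2 fold change 0.89, edgeR adjusted p = 0.0141) and kept its call without any 1 library. The other, Tll2, a protease related to Bmp1, was under 0.5 FPKM in every library and reached the filter level in all KO-labelled but not all WT libraries. The list's next genes by p, Emilin1, Itgav and Pcsk6, had log2 fold changes of 0.26, 0.24 and 0.37 and did not pass.

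Of 9 tested co-receptors and decoy receptors other than Tgfbr3, 1 rose and 1 fell (median 0.13). Hfe2, the BMP co-receptor hemojuvelin of liver and muscle, rose from 0.122 ± 0.0714 to 0.81 ± 0.246 FPKM (log2 fold change 2.62, edgeR adjusted p = 0.0046). It reached the filter level in all KO-labelled but not all WT libraries, and the part of liver transcripts in it was not tested. Neo1, or neogenin, a receptor that binds hemojuvelin, measured 10.4 ± 1.01 FPKM in WT and 8.78 ± 0.724 FPKM in the KO-labelled libraries (-0.32, adjusted p = 0.0428). Its ranges overlap, and its call was lost in 7 of the 8 cases with 1 library left out. Eng, or endoglin, the endothelial co-receptor, was at 71.8 ± 11.3 and 82.6 ± 4.27 FPKM and did not pass, nor did Tmeff2 and Bambi, with log2 fold changes of 0.14, 0.13 and 0.20.

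Of 28 tested intracellular regulators, 1 rose, 3 fell and 24 did not pass (median -0.03). Strap, which binds TGF-beta receptors and SMAD7, fell from 31.0 ± 2.72 to 23.4 ± 1.06 FPKM (log2 fold change -0.47, edgeR adjusted p = 0.00338), and Tgif1, a SMAD corepressor, rose from 4.64 ± 0.391 to 7.82 ± 1.82 FPKM (0.68, adjusted p = 0.0211). Strap kept its call without any 1 library, and Tgif1 lost it in 2 of 8 cases. Usp11 and Pmepa1, a deubiquitinase and a SMAD-binding feedback inhibitor, fell by 0.41 and 0.46 on the log2 scale with adjusted p-values of 0.047 and 0.0497. Each lost its call in 7 of 8 cases with 1 library left out and under 6 of the 11 other settings. With any 1 library other than WT 2 or KO 2 left out, the list had 1 or 2 called genes in place of 4.

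Genes known to respond to the pathway were counted apart. Of 22 tested TGF-beta response genes, 7 rose, 1 fell and 14 did not pass (median 0.26), a called share of 36.4% where 18.3% of all genes were called. That share was 20.0% for antagonists and modulators, 12.5% for latency and activation, and 22.2% for co-receptors and decoy receptors. It was 14.3% for intracellular regulators, 14.3% for BMP response genes and 33.3% for the rest of the family. The lists were chosen with earlier results of these data known, and no difference between them was tested. Postn, the matrix protein periostin, measured 27.63, 42.83, 36.57 and 30.52 FPKM in WT 1 to 4 and 97.97, 67.84, 96.46 and 90.35 FPKM in KO 1, 2, 4 and 5, with groups far apart (log2 fold change 1.30, edgeR adjusted p = 0.00114). Timp1, an inhibitor of matrix proteases, rose from 3.29 ± 0.380 to 7.23 ± 0.807 FPKM (1.08, adjusted p = 0.00212). The collagen chains Col1a1 and Col3a1 rose by 0.65 and 0.43. Fn1, Loxl2 and Lox, for fibronectin and collagen crosslinkers, rose by 0.81, 0.35 and 0.65. With 1 library left out, the calls of Lox, Fn1, Loxl2 and Col3a1 were lost in 7, 5, 4 and 4 of 8 cases, and the ranges of Lox overlap. Pmepa1 was the gene that fell. The genes that rose encode matrix proteins, their crosslinking enzymes and a protease inhibitor, and Col1a1 and Col3a1 are on the fibroblast marker list as well. With any 1 library other than WT 2 or KO 5 left out, the list had 3 to 5 called genes in place of 8.

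Of 14 tested BMP response genes, 2 rose and 12 did not pass (median 0.28). Hamp, the hepatic iron hormone hepcidin, measured 2.15, 0.20, 0.19 and 0.59 FPKM in WT 1 to 4 and 10.04, 23.78, 12.27 and 9.47 FPKM in KO 1, 2, 4 and 5 (log2 fold change 4.06, edgeR adjusted p = 0.00316). WT 1, which had the highest WT sum of liver markers without Cyp2e1, was also the highest WT library for Hamp, at no more than 11 counts. The other libraries did not keep the same order. WT 4 was above WT 3 in Hamp and below it in that sum. KO 2 was the highest in Hamp, and KO 4 in that sum. The part of liver transcripts in the rise of Hamp was not tested. Like Hfe2, Hamp reached the filter level in all KO-labelled but not all WT libraries. Atoh8, a transcription factor induced by BMP, rose from 4.79 ± 0.973 to 7.10 ± 0.377 FPKM (0.50, adjusted p = 0.0296), a call lost in 6 of 8 cases with 1 library left out. Id2 and Zfp423 had log2 fold changes of 0.38 and 0.31 and did not pass, and neither did Id1 (0.20), Id3 (0.26) and Id4 (-0.16), which encode the classic direct targets of BMP SMADs. Without WT 2 the list had 6 called genes, and 1 or 2 without any other library. Of 3 tested genes among the rest of the family, 1 passed: Amhr2, the anti-Müllerian hormone receptor, rose from 1.52 ± 0.719 to 3.35 ± 0.916 FPKM (1.08, adjusted p = 0.0426), with overlapping ranges and the call lost in 7 of 8 cases.

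**Figure D5:**
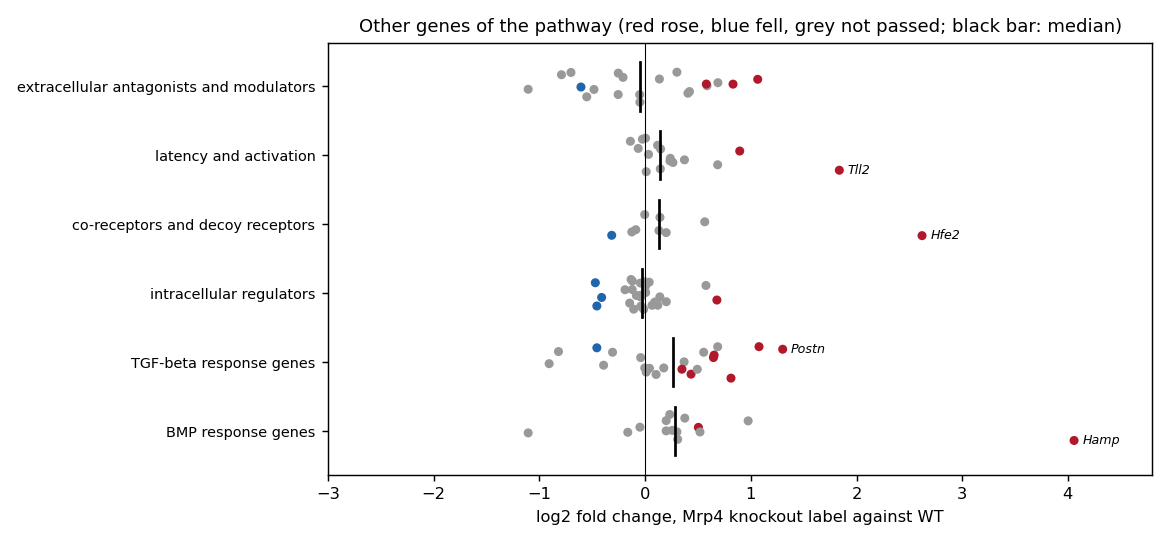
Log2 fold change (x axis, KO-labelled libraries against WT, edgeR) of the tested genes in 6 lists of other pathway genes, 1 point a gene; red rose, blue fell, grey did not pass, and the black bar is the list's median. The medians lie between -0.05 and 0.28, and Hamp is the highest point at 4.06.

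Markers of other cell types moved between the same groups. Of the tested markers, 6 of 13 for macrophages rose (summed level 977 to 1171 FPKM in WT and 1230 to 1847 FPKM in the KO-labelled libraries). So did 5 of 10 for endothelium (328 to 519 and 555 to 593 FPKM) and 3 of 9 for mural and smooth muscle cells (210 to 315 and 304 to 371 FPKM). None of these markers fell, though some had negative log2 fold changes without passing, such as Cnn1 at -0.91 and Tagln at -0.31. Over all tested genes, 10.2% rose and 8.05% fell. Of 11 progenitor and fibroblast markers 5 rose and 1 fell (1582 to 1814 and 1497 to 1739 FPKM), of 11 adipocyte markers 1 rose and 4 fell, and of 9 mesothelial markers 1 fell (169 to 269 and 64.2 to 172 FPKM). No marker of these lists was at 0 in all WT libraries. Of epididymis markers, none was high enough to test, and they summed to 13.5 FPKM in WT 2 and to at most 0.60 FPKM in every other library. The part of these cell types in the changes of Inhbb, Gdf15, Gdf6, Tgfbr3, Smad1, Smad9, Bmp1 and the pathway lists was not tested.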

How the data were processed

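White adipose tissue of 4 WT and 4 Mrp4 knockout-labelled libraries was measured as polyadenylated RNA with paired reads of 100 bases on the BGISEQ-500 platform, per the labels' protocols. The submitters' processing notes name Bowtie2 and the genome build mm9, with the quantifier not given in the sources used here. Each gene of a library has 3 values deposited by the authors, per the file headers: its expected count, its FPKM and its transcript length. Between 92.0% and 92.6% of the expected counts deposited were whole. Unlisted genes were taken as 0. The authors' joint FPKM table matched the single files, with a largest difference of 0.

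The rounded expected counts went into edgeR 4.0.16 (R 4.3.3): filterByExpr (a cutoff of 0.687 CPM in at least 4 libraries), TMM scaling, the robust quasi-likelihood test on genotype, two-sided, and Benjamini-Hochberg adjustment over 14257 genes, threshold 0.05. Groups were taken from the genotype label. The symbol rule for the members reads no values. Both the members and the lists were still chosen with earlier results of these data known, so a pattern among them is no independent support. Named genes are Abcc4, members that passed the test or reached a mean of 1 FPKM in a group, and per pathway list up to 4 genes of lowest p among those reaching that mean, plus any called against the list's main direction; Hfe2, Tll2, Fn1, Loxl2, Lox and the Id genes were named after their values were seen, as were the members under 1 FPKM given with values.

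Alternatives were DESeq2 1.42.0 (its size factors and its test), upper quartile factors, library size alone, 2 other filters, liver markers left out before scaling, limma 3.58.1 (voom, and FPKM with pseudocounts of 1 and 0.1), a replicate block and each library left out. The script was tested on simulated counts. Strand is not mentioned, so reads of overlapping, antisense or near-identical genes may be shared. Counting intervals cover counting error only, since reads carried no molecular identifiers. Promoter sequences are RefSeq's, on GRCm38.p6. A gene of the antagonist list is not reported here.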

Additional observations from a re-analysis of the deposited data

Results flagged for a closer look

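In 6 of 78 groups of 4 libraries, 1 library stood apart from the other 3 by more than Dixon's 95% critical value for the share of the group's range that lies between it and its nearest neighbour. Chance gives about 1 in 20. In WT, Bmp2 was low in WT 1 (3.63 FPKM, the others 4.58 to 4.73 FPKM), Acvr2a was low in WT 3 (3.39 FPKM, the others 4.49 to 4.57 FPKM), and Tgfbr3 was low in WT 2 (41.73 FPKM, the others 43.84 to 43.99 FPKM). Smad9 was high in WT 1 (0.72 FPKM, the others 0.48 to 0.50 FPKM), and Gdf5 was high in WT 2 (0.92 FPKM, the others 0.25 to 0.36 FPKM). In the KO-labelled group, Gdf9 was low in KO 2 (0.43 FPKM, the others 0.97 to 1.01 FPKM).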

How the results depend on the processing

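Of the 7 calls among the members, 7 were made in every other scaling and with DESeq2 and voom, 9 with no filter (Inhbc and Inhbe added), 6 with a filter of 1 CPM, which leaves Gdf6 untested, and 7 with limma on log2 FPKM, with Bmp5 in place of Smad9. With 1 library left out, 2 to 7 members were called and 1172 to 3683 genes in all, against 2606. The fewest came without WT 4 and the most without WT 2; the cause was not tested. The replicate numbers showed no sign of pairing the libraries: correlations of same-numbered deviations were 0.0107, -0.0746 and -0.128, and 0 of 3 libraries correlated best with their own number. With only 3 shared numbers this cannot exclude a pairing. With the number as a replicate block, edgeR called 141 genes and 0 members, 12 of which had an unadjusted p under 0.05. Of the calls over all genes, 55.9% were higher; this was 74.1% with library size alone and 73.1% and 73.0% with limma on log2(FPKM + 1) and log2(FPKM + 0.1). Among pathway lists, latency and activation went from 2 calls to 4 with library size alone and 1 with the 1 CPM filter, co-receptors from 2 to 1 with that scaling, that filter and limma on FPKM, intracellular regulators from 4 to 2 with upper quartile factors and limma on FPKM, antagonists from 4 to 7 with DESeq2, and the rest of the family from 1 to 2 with no filter. The replicate block left 1 antagonist (Fstl1) called.

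Among the tested members and Abcc4, directions turned for genes that did not pass. With library size alone, log2(FPKM + 1) and log2(FPKM + 0.1), Abcc4 was at 0.0182, 0.0284 and 0.0353, Tgfbr2 at 0.0129, 0.0084 and 0.0085, Smad5 at 0.0158, 0.0125 and 0.0133, Smad4 at 0.0298, 0.0261 and 0.0273, Smad6 at 0.052, 0.0544 and 0.0616, and Smad7 at 0.0526, 0.0448 and 0.0586. Smad7 was at 0.0002 with upper quartile factors. With the replicate block, Abcc4 was at 0.0148, Tgfbr2 at 0.0315, Smad7 at 0.0547 and Gdf5 at -0.12. With 1 library left out, Tgfb2 ran from -0.0782 to 0.22, Acvr2b from -0.18 to 0.0469, Smad6 from -0.0986 to 0.0882, Smad7 from -0.13 to 0.11, Gdf5 from -0.0812 to 0.73, Bmpr1b from -0.38 to 0.0847 and Abcc4 from -0.09 to -0.01.

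The lowest called members rest on 125 (Gdf6), 205 (Gdf15) and 269 (Smad9) counts, which limits them. For the 10 untested members, differences were not detectable at this depth with the filter, except as counts.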
